A study of Canis lupus familiaris with 8 samples.

Results

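A set of 88 genes of MDCK I cells was examined, out of 32704 genes in the count table, whose transcripts rose with hyperosmolality and differed little between the control siRNA and both siRNAs against Nfat5. MDCK I is a canine kidney epithelial cell line. The genes were chosen from the group means themselves. Counts were divided by median-of-ratios size factors, which gives the normalised counts used below, and the mean of at least 1 group had to reach 400. In cells with the control siRNA, the log2 of the group mean plus 1 had to rise by at least 1.5 from isosmotic to hyperosmotic medium, and at the higher osmolality it had to stay within 0.35 of the control with both Nfat5-siRNAs. The osmotic rise and the small siRNA differences are therefore the reason why a gene is described here, and they are given as a description without a test.

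Cells in hyperosmotic medium lose water and shrink, and over hours they restore their volume by collecting small organic osmolytes such as taurine, betaine, myo-inositol and sorbitol. NFAT5, also called TonEBP, is the transcription factor best known for this programme in the kidney, where it activates the carriers and enzymes that raise these osmolytes. Hyperosmolality also engages stress kinases and other transcription factors, so a gene can follow osmolality by routes other than NFAT5. A small difference with an siRNA does not by itself show that a gene is independent of NFAT5, because an siRNA removes part of its target.

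The RNA-sequencing data comprised 8 libraries in 4 groups of 2. The isosmotic control is the group labelled Neg-siRNA (300 mOsm), and the hyperosmotic control is that labelled Neg-siRNA (500 mOsm). The groups Nfat5-1-siRNA (500 mOsm) and, with another construct, Nfat5-2-siRNA (500 mOsm) are called below by the name of their siRNA. All groups were transfected with 100 nM siRNA, and the control siRNA was directed against Slc22a6, which the study describes as absent from these cells. The groups at 500 mOsm had raffinose in the medium for the last 24 h, whereas the isosmotic control stayed in normal growth medium, and no Nfat5-siRNA library at 300 mOsm was analysed here. Replicate 1 of each group was passage 15 of the cells and replicate 2 was passage 17. The total count was 44515340 and 34564103 in the isosmotic control, 41742578 and 43971253 in the hyperosmotic control, 46043788 and 45111348 in Nfat5-1-siRNA, and 37488252 and 39036966 in Nfat5-2-siRNA. Each group held 2 passages of 1 cell line, so the p-values of the comparisons between groups measure the spread between these passages. In such bulk RNA, fewer cells of a type and less RNA per cell cannot be told apart. None of the 88 genes could be paired with a gene symbol, because the symbols at hand cover 860 identifiers and none of these belongs to the 88. These symbols come from a list that the paper describes as genes raised by hyperosmolality and lowered by both Nfat5-siRNAs. The selection rule thus largely kept the 88 genes out of it. The 88 genes are therefore named by their position in CanFam 3.1, and what most of their products do was not analysed here.

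Of the 9951 genes with a group mean of at least 400, 625 had the osmotic rise. In 363 of the 625, both Nfat5-siRNAs lay more than 0.35 below the hyperosmotic control on the log2 scale, and in 81 exactly 1 of them did while the other stayed inside the band. Both siRNAs lay above the band in 49 genes and exactly 1 did in 37, and in 7 genes the siRNAs lay on opposite sides. The remaining 88 genes were 0.884% of the genes that reached the minimum mean. Near the limits, the smallest rise inside was 1.5004 at chr20:45461946-45465417, and the largest rise outside was 1.4963 at chr32:7165410-7199714. For the Nfat5-1-siRNA difference the last gene inside had an absolute value of 0.348 and the first outside 0.352, and for Nfat5-2-siRNA the values were 0.345 and 0.354. Group means of 419 and 397 were the nearest on either side of the minimum. No gap in the values separated the 88 genes from their neighbours.

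**Figure D1:**
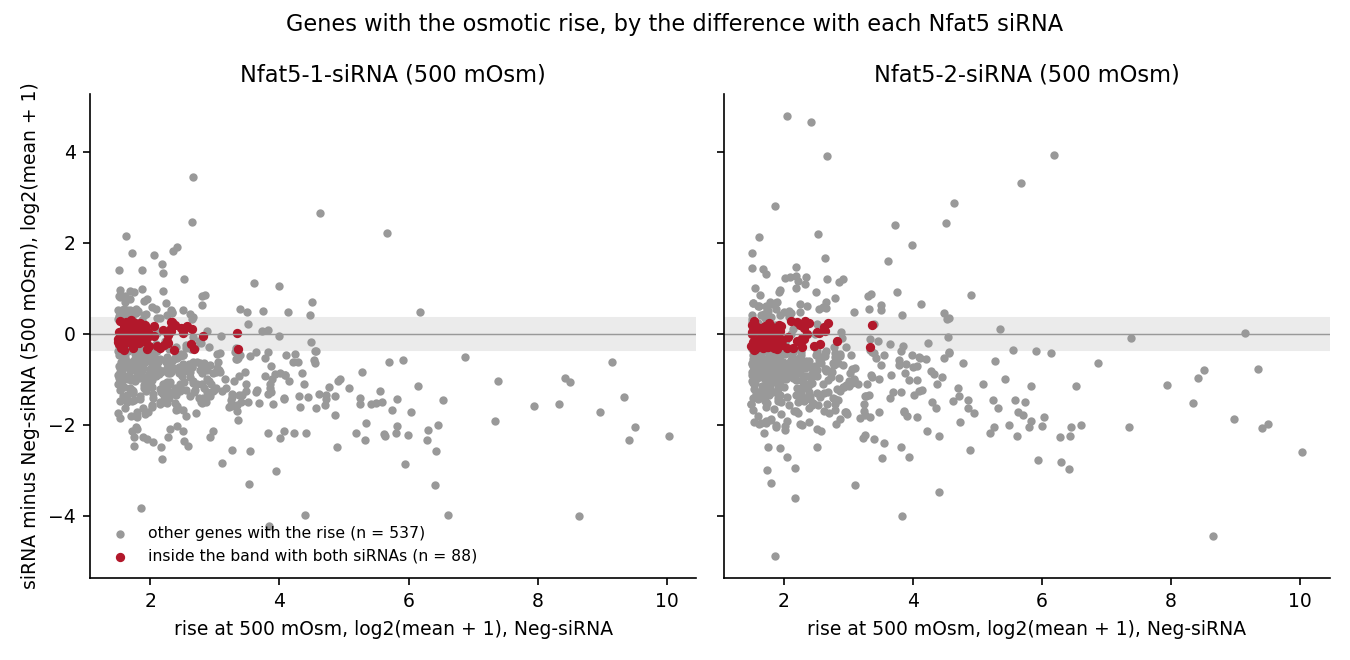
Rise in log2(mean + 1) from the isosmotic control to the hyperosmotic control on the horizontal axis against the difference of each Nfat5-siRNA group from the hyperosmotic control on the vertical axis, for the 625 genes with the rise. The 88 genes (red) lie in the grey band of 0.35 with both siRNAs, at rises of at most 3.36, while most of the other 537 genes (grey) lie below it.

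The scaling bears on which genes are included. With library totals in place of size factors, the median of the 9951 genes moved to −0.12 for the osmotic contrast, to 0.17 for Nfat5-1-siRNA and to 0.19 for Nfat5-2-siRNA. The medians of the 88 genes moved with them, from 1.82 to 1.69, from −0.01 to 0.16 and from −0.11 to 0.15. The rule then chose 85 genes, and 45 of these were among the 88. With TMM-scaled totals it chose 84 genes, of which 77 were shared.

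In the 88 genes the rise from the isosmotic control to the hyperosmotic control ranged from 1.50 to 3.36 on the log2 scale, with a median of 1.82. This corresponds to 2.83-fold to 10.5-fold, with a median of 3.55-fold. In 26 genes the rise was at least 4-fold and in 6 at least 6-fold. All 88 genes were called higher by edgeR at an adjusted p-value under 0.05, where 11.3% of the 19835 tested genes were, and nothing is read from this because the same contrast chose them. For the same reason, the count of 88 genes with all 6 libraries at 500 mOsm above both libraries at 300 mOsm, against 19.7% of tested genes, is a description.

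Library by library, the median level differed little among the 500 mOsm groups, which the rule required of the group means. Relative to the mean of the isosmotic control, the median gene stood at 1.88 and 1.76 on the log2 scale in replicates 1 and 2 of the hyperosmotic control. It stood at 1.84 and 1.85 in Nfat5-1-siRNA and at 1.71 and 1.77 in Nfat5-2-siRNA. The other 537 genes with the rise had medians of 2.26 and 2.25, then 1.78 and 1.53, and then 1.62 and 1.56 in the same libraries. These are the genes that the band left out, so the contrast with them was set by the rule and nothing is read from it. The 88 genes together took 0.466% and 0.437% of the counts in the isosmotic control. They took 1.48% and 1.40% in the hyperosmotic control, 1.63% and 1.61% in Nfat5-1-siRNA, and 1.65% and 1.60% in Nfat5-2-siRNA. As a part of the library totals, the share was thus higher in every Nfat5-siRNA library than in either library of the hyperosmotic control. A single gene at chr37:22455906-22523117 held between 17.1% and 21.8% of the counts of the 88 genes.

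**Figure D2:**
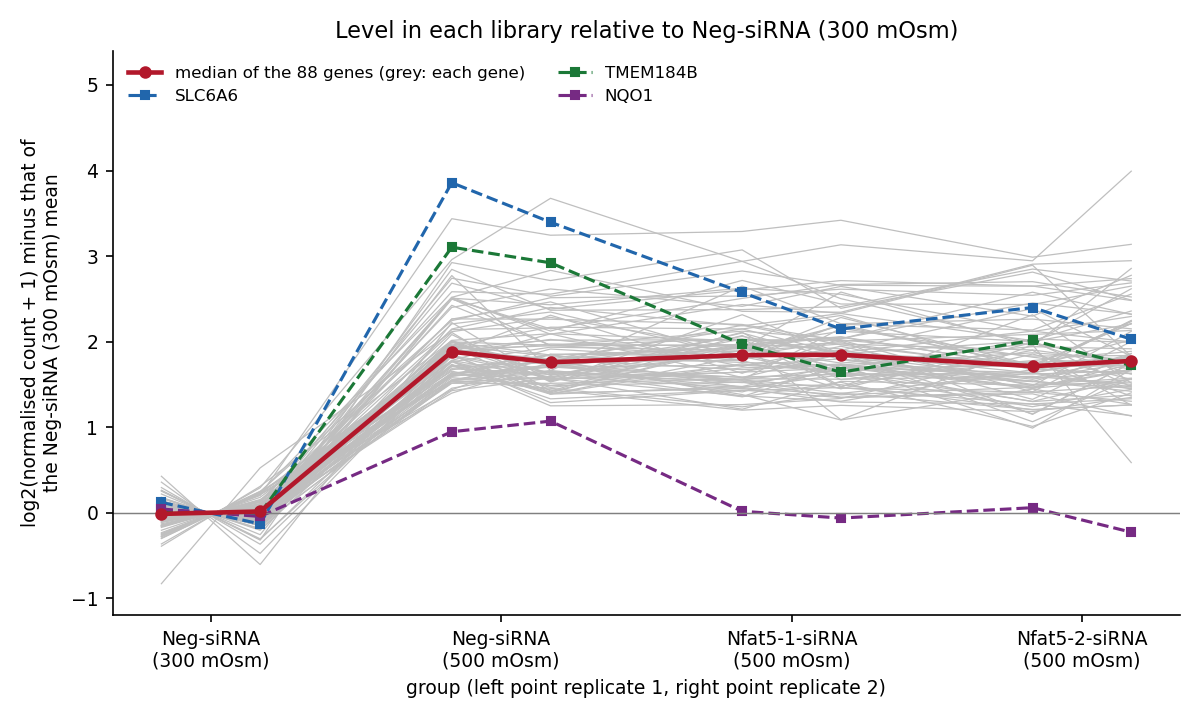
Log2(normalised count + 1) in each library minus that of the isosmotic control mean, with the 88 genes as grey lines, their median as a red line, and SLC6A6, TMEM184B and NQO1 as dashed lines for contrast. The median of the 88 genes lies between 1.71 and 1.88 in the 6 libraries at 500 mOsm, whereas the dashed lines fall with both Nfat5-siRNAs. The narrow range of the median follows from the rule that chose the genes.

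The largest rise was that of ENSCAFG00000004761 at chr1:111635008-111641310, which has 4 exons and 4848 exonic bases. Its normalised counts were 26.6 and 42.5 in the isosmotic control and 275 and 453 in the hyperosmotic control. In Nfat5-1-siRNA they were 271 and 311, and in Nfat5-2-siRNA 273 and 565. The groups at 500 mOsm overlapped each other and lay above both libraries at 300 mOsm, for a rise of 10.5-fold. This was also the least counted gene of the set, with 29 reads in its lowest library, and its edgeR log2 fold change of 3.43 had the largest standard error, 0.404.

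ENSCAFG00000028621, at chr9:58189770-58221763 with 8 exons, had the second largest rise, 10.2-fold. Its normalised counts were 327 and 443 at 300 mOsm and 4183 and 3659 in the hyperosmotic control. With Nfat5-1-siRNA they were 3771 and 4131, and with Nfat5-2-siRNA 3062 and 3398. Nfat5-1-siRNA overlapped the hyperosmotic control, while both libraries of Nfat5-2-siRNA were below it, by 0.28 on the log2 scale of the means.

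After these, the rises became smaller in small steps. The gene at chr14:52053470-52076452 rose 7.08-fold, from 2126 and 1420 to 13461 and 11635, and counted 14918 and 9292 with Nfat5-1-siRNA and 12463 and 9930 with Nfat5-2-siRNA. In each of these 4 groups passage 17 was the lower. The gene at chr4:39588339-39592891 rose 6.43-fold, and its siRNA libraries parted. They were 3976 and 3947 with Nfat5-1-siRNA and 5826 and 5994 with Nfat5-2-siRNA, on either side of 4453 and 5544 in the hyperosmotic control. At chr1:110698125-110713305 the rise was 6.24-fold, from 670 and 703 to 4594 and 3971, and all libraries at 500 mOsm lay between 3971 and 4872. At chr24:13337234-13587167 a gene of 30 exons rose 6.17-fold, from 2431 and 2019 to 15984 and 11478. Its siRNA libraries, at 11536, 11823, 16024 and 14546, spread over about the same range. The other 6 of the 12 largest rises, on chromosomes 6, 14, X, 12, 2 and 18, lay between 5.16-fold and 5.99-fold.

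**Figure D3:**
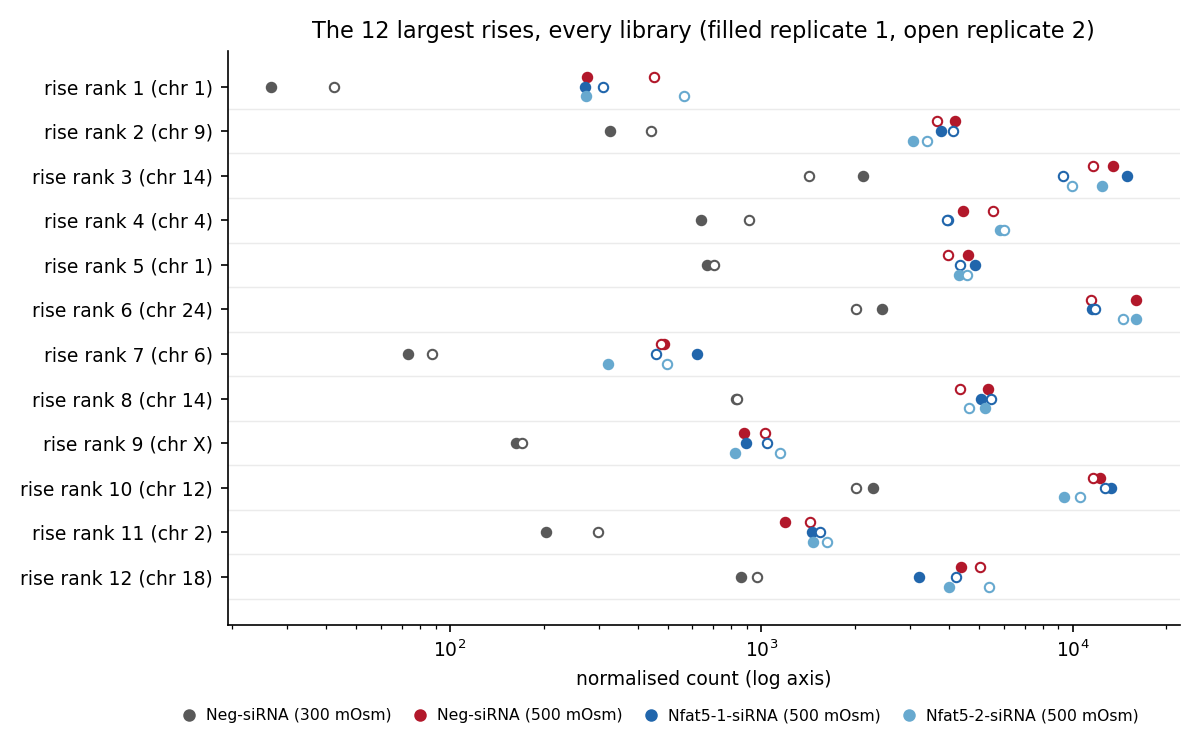
Normalised counts on a log axis in all 8 libraries for the genes with the 12 largest rises, with filled symbols for replicate 1 and open symbols for replicate 2. In each gene both libraries of the isosmotic control (grey) lie to the left of the other 6, and the Nfat5-siRNA libraries (blue) lie among or next to those of the hyperosmotic control (red).

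Levels between genes were compared per kilobase of exon. In the hyperosmotic control the normalised count per kilobase ranged from 73.5 to 17111 with a median of 1381, compared to 7.13 to 5413 with a median of 351 in the isosmotic control. The highest level was that of the gene at chr15:16282777-16285666, which has 618 exonic bases. Its normalised counts were 3031 and 3660 at 300 mOsm, 9062 and 12086 in the hyperosmotic control, 11931 and 13440 with Nfat5-1-siRNA, and 7423 and 11254 with Nfat5-2-siRNA. In all 4 groups passage 17 was the higher. Each siRNA group overlapped the hyperosmotic control, while both libraries of Nfat5-1-siRNA lay above both of Nfat5-2-siRNA. The next levels per kilobase were 12937 at chr5:31867082-32042087, 12278 at chr10:38043470-38065127 and 11880 at chr37:22455906-22523117. The annotation of the first of these holds only 384 exonic bases over a span of 175006 bases, so its level per kilobase rests on a short exonic length.

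The gene at chr37:22455906-22523117 has 45 exons and 9749 exonic bases and was the most counted of the 88. Its normalised counts were 41442 and 39761 in the isosmotic control and 115837 and 115807 in the hyperosmotic control. With Nfat5-1-siRNA they were 120159 and 119747, and with Nfat5-2-siRNA 122521 and 114868. The 6 libraries at 500 mOsm thus lay close together, and the rise of 2.85-fold was among the smallest of the set.

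The differences from the hyperosmotic control had log2 medians of −0.01 with Nfat5-1-siRNA and −0.11 with Nfat5-2-siRNA, within limits of 0.35 that the rule set. Both siRNAs were below the control in 28 genes and both above it in 18, signs that depend on the scaling as given above. Nfat5-1-siRNA was below and Nfat5-2-siRNA above in 18 genes, and the reverse held in 24. No gene of the set was called by edgeR with Nfat5-1-siRNA, where 7.93% of tested genes were, and none with Nfat5-2-siRNA, where 12% were. When the model held the passage as a block, 21.5% and 26.1% of tested genes were called, and again none of the 88. DESeq2 also called none of the 88 with either siRNA, while over all genes it called 2682 with Nfat5-1-siRNA and 3510 with Nfat5-2-siRNA. At an unadjusted p under 0.05 edgeR gave 2 genes with Nfat5-1-siRNA and 7 with Nfat5-2-siRNA, where 31.9% and 36.7% of tested genes passed. With the block it gave 9 and 20, against 38.2% and 42.4% of tested genes. Nothing is read from these counts, because the same contrasts chose the genes.

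A call of none does not show equal levels. The 95% confidence interval of the edgeR log2 fold change extended a median of 0.37 to either side of the estimate for each siRNA. The intervals lay within a 2-fold change in both directions for 87 genes with each siRNA and for 86 genes with both, a count largely set by the rule, which held the estimates near 0, so that nothing is read from it. The exceptions were the gene with the largest rise, whose interval with Nfat5-1-siRNA ran from −1.09 to 0.39, and the gene at chr10:12785741-12817966, whose interval with Nfat5-2-siRNA ran from −1.10 to 0.46. In the libraries themselves, Nfat5-1-siRNA overlapped the hyperosmotic control in 60 genes, lay below it in 15 and above it in 13, where 31.8% of tested genes lay below and 28.1% above. Nfat5-2-siRNA overlapped in 56 genes, lay below in 23 and above in 9, against 30.4% below and 29.4% above among tested genes. Taken one passage at a time, 56 genes stayed inside the band with both siRNAs in replicate 1 and 74 in replicate 2, and 46 did so in both.

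The smallest siRNA differences were found at chrX:40246654-40389382. Its normalised counts were 162 and 170 in the isosmotic control and 881 and 1023 in the hyperosmotic control. They were 889 and 1045 with Nfat5-1-siRNA and 821 and 1144 with Nfat5-2-siRNA. The 500 mOsm groups overlapped, with differences of 0.02 and 0.04 in log2(mean + 1) and a rise of 5.73-fold. The gene at chr34:36373993-36637583 rose from 1869 and 1606 to 6925 and 6236, and counted 6593 and 5843 and then 6675 and 6559 with the siRNAs. Those at chr37:22455906-22523117, chr3:83560619-83702542, chr12:48646194-48844777 and chr23:23165806-23233093 completed the 6 smallest, with absolute differences of at most 0.0838. In all, 9 genes had both differences within 0.1.

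Genes that the study names served as a contrast. The study had called them in these comparisons on these same samples, and it picked TMEM184B from its list of such genes. Their falls are therefore a description and not independent evidence. SLC6A6, the taurine carrier, had a mean normalised count of 9384 in the isosmotic control, 117388 in the hyperosmotic control, 48739 with Nfat5-1-siRNA and 43875 with Nfat5-2-siRNA. In edgeR it fell by 1.29 with an SE of 0.21 under the first siRNA and by 1.47 with an SE of 0.21 under the second, on the log2 scale, with adjusted p-values of 0.00990 and 0.00270. AKR1B1, aldose reductase, which makes sorbitol, fell by 2.21 and by 2.10 on the log2 scale with edgeR adjusted p-values of 0.000532 and 0.000418. SLC6A12, the betaine carrier, fell by 1.74 and 1.92, and TMEM184B, a transmembrane protein that the study followed further, fell by 1.22 and 1.19, all called. SLC5A3, the myo-inositol carrier, had log2 fold changes of −1.46 and −1.97, of which the first was not called, with an edgeR adjusted p of 0.0716. The 88 genes stood apart from these by the way they were chosen. The largest siRNA differences in the set were −0.35 with Nfat5-1-siRNA and −0.34 with Nfat5-2-siRNA.

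The 88 genes lay on 30 chromosomes, with at most 7 on any one, chromosome 10. Their median exonic length was 3769 bases, compared to 2463 in the other 537 genes with the rise and 2507 in all 9951 genes. Their median span was 33372 bases against 30265 and 22931, while the median number of exons was 10, 9 and 10. Of the 88 genes, 10 shared exonic bases with another annotated gene, and in 4 that gene reached 100 normalised counts. Reads of such pairs cannot be told apart with certainty, since strand was not used in the counting.

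A few of the genes were neighbours. There were 5 pairs with less than 50 kb between them, made up of 9 genes, and these pairs were chosen after their values were seen. On chromosome 12, 3 consecutive genes within 302 kb belonged to the set. The first, at chr12:48542432-48562586, counted 2290 and 2020 in the isosmotic control, 12258 and 11619 in the hyperosmotic control, 13288 and 12652 with Nfat5-1-siRNA, and 9354 and 10570 with Nfat5-2-siRNA. Nfat5-1-siRNA lay above and Nfat5-2-siRNA below the control, both inside the band. The second, at chr12:48582574-48607105, counted 3419 and 3482, then 16596 and 16549, then 15862 and 13872, and then 14635 and 15103. Here both siRNAs lay below the control, by 0.16 on the log2 scale of the means. The third, at chr12:48646194-48844777, was transcribed from the opposite strand and counted 615 and 530, then 2156 and 2213, then 2235 and 2384, and then 1868 and 2708.

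The gene next to these 3, GABRR2, a subunit of ionotropic GABA receptors, lies 4553 bases away and fell with both siRNAs. It was counted 0 times in both libraries of the isosmotic control, and its normalised counts were 124 and 197 in the hyperosmotic control. They were 13.2 and 10.5 with Nfat5-1-siRNA and 41.0 and 33.6 with Nfat5-2-siRNA. Both siRNA groups lay below the control without overlap, and in edgeR the log2 fold changes were −3.77 ± 0.47 (SE) and −2.15 ± 0.42 with adjusted p-values of 0.00216 and 0.0266. GABRR2 has a symbol here because the study listed it from these comparisons on these samples, so its fall is not independent evidence. Another annotated gene lies inside the span of GABRR2 on the same strand, with group means of 0, 52.7, 3.07 and 9.92, so the division of reads between these genes is uncertain. Beyond the third gene and a short gene with means between 181 and 265, the gene at chr12:48855622-49020864 was outside the set because its rise was too small. Its means were 1953, 4687, 4775 and 4916, with an edgeR log2 fold change of 1.28 ± 0.15 for hyperosmolality, at an adjusted p of 0.000192, and of 0.01 and 0.02 with the siRNAs, neither called.

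**Figure D4:**
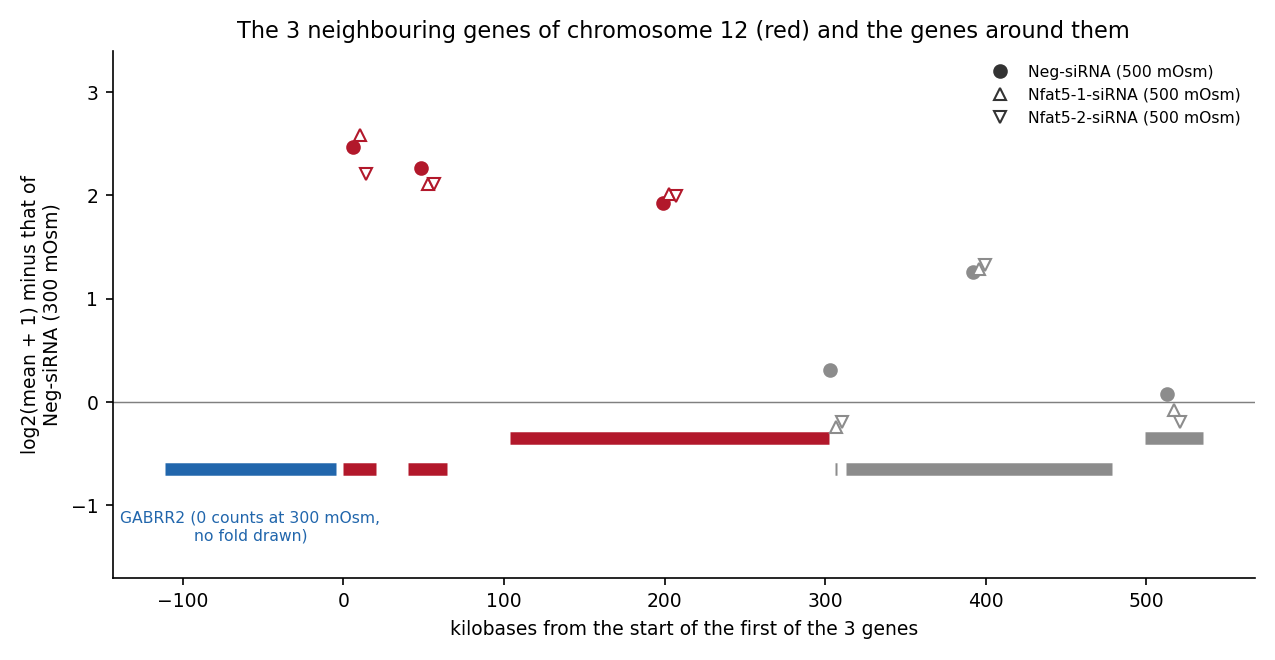
Log2(mean + 1) of the 500 mOsm groups minus that of the isosmotic control for the genes of the chromosome 12 region whose highest group mean was at least 100, at the midpoint of each gene, with the genes drawn to scale below as bars (upper row plus strand, lower row minus strand). The 3 red genes lie between 1.93 and 2.59 in all 3 groups at 500 mOsm, and GABRR2 (blue bar) has no value drawn because both of its libraries at 300 mOsm were at 0.

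On chromosome 3, the genes at chr3:69710917-69724118 and chr3:69730387-69756542 pointed away from each other with 6268 bases between them. Their group means were 705 and 2514 for the first and 229 and 766 for the second, at 300 mOsm and in the hyperosmotic control. With the siRNAs, the first had means of 2176 and 2583 and the second of 615 and 686. On chromosome 5, the genes at chr5:14745506-14755574 and chr5:14795730-14808329 had 6 genes between them, and the 4 of these that reached the minimum mean had log2 differences between −1.18 and 0.65 with hyperosmolality. The pair on chromosome 10, at chr10:33423156-33515538 and chr10:33553973-33811215, had no gene between them, and with the siRNAs the first lay at −0.15 and −0.32 and the second at 0.29 and 0.27.

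In 6 of the 88 genes a gene with a known symbol lay within 25 kb, a distance chosen after the values were seen. Beside NQO1, a quinone reductase of the oxidative defence, the gene at chr5:80003598-80115099 counted 889 and 971 at 300 mOsm and 3485 and 3164 in the hyperosmotic control. It counted 4249 and 3623 with Nfat5-1-siRNA and 3030 and 3067 with Nfat5-2-siRNA, so that the siRNA groups lay on either side of the control. The files do not pair this gene with a symbol. In the RefSeq annotation of another assembly, UU_Cfam_GSD 1.0, the protein-coding genes on either side of NQO1 are NOB1 and NFAT5, so this gene may be the siRNA target itself, and that order was not taken as an identification. NQO1 itself, 13950 bases away, had means of 17027, 34284, 16760 and 16134 in the same order of groups, and with the siRNAs it fell by 1.05 and 1.14 on the log2 scale, with edgeR adjusted p-values of 0.00455 and 0.00176. Beside SLC26A6, an anion exchanger, the gene at chr20:40458317-40482160 had means of 174, 751, 627 and 913. SLC26A6 had means of 2849, 6098, 3794 and 4050. Its log2 fold change was −0.71 with Nfat5-1-siRNA and −0.64 with Nfat5-2-siRNA, with edgeR adjusted p-values of 0.0351 and 0.0473. The gene 700 bases from USP35, at chr21:20283223-20606796, had means of 1167, 4880, 5470 and 4621. USP35, a deubiquitinating enzyme, had means of 200, 501, 948 and 955. Its log2 fold changes with the siRNAs were 0.90 and 0.88, opposite in sign to those of the other 5 neighbours, and were not called, with edgeR adjusted p-values of 0.105 and 0.0894. The gene beside LTBP3, at chr18:51633047-51634034, had means of 162, 724, 581 and 582. Its siRNA differences were −0.32 and −0.31, and every siRNA library lay below both of the hyperosmotic control. LTBP3, which binds latent TGF-beta, had means of 3996, 2681, 1624 and 1695. Its fall with each siRNA was called, with edgeR adjusted p-values of 0.0423 and 0.0418. Beside NR2F6, the gene at chr20:45461946-45465417 had means of 246, 697, 615 and 579. Its siRNA differences were −0.18 and −0.27, again with every siRNA library below both of the hyperosmotic control. NR2F6, an orphan nuclear receptor, had means of 1903, 3050, 2030 and 1723. In edgeR it was called lower with Nfat5-2-siRNA, at an adjusted p of 0.00622, but not with Nfat5-1-siRNA, at 0.0827. With the siRNAs, the genes beside LTBP3 and NR2F6 thus went the same way as these neighbours, inside the band. The symbols at hand come from the study's own list of genes that it called in these comparisons on these samples, so the behaviour of such neighbours is not independent evidence. The paper describes that list as genes raised by hyperosmolality and lowered by both siRNAs, a pattern that USP35 and LTBP3 did not have here.

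The difference between passages was not used to choose the genes and could be tested. Passage is the same as replicate number in every group, so it cannot be told apart from anything else that differed between the replicates. The p-values of this term measure how far the difference varied between the 4 groups, which are not independent replicates of a passage. With group and passage in the edgeR model, 8 of the 88 genes differed between passage 17 and passage 15 at an adjusted p-value under 0.05, 2 of them higher in passage 17, where 1.28% of tested genes were, and 6 lower, where 2.02% were. In either direction this compares to 3.29% of all tested genes, and to 5.83% of the 9951 genes that reached the minimum mean, a group closer to the set in level. At an unadjusted p under 0.05, 34 of the 88 genes differed, against 18.5% of tested genes and 30% of the 9951 genes. In 28 genes the difference had 1 sign in all 4 groups, which was 31.8% of the set against 23.4% of tested genes and 34.4% of the 9951 genes. The calls depended on the filter for low counts. With edgeR's filterByExpr only 2 of the 8 genes were called, and over all genes 101 were in place of 653. DESeq2 called 5 of the 88 genes, all among the 8, and 485 over all genes. Without either library of the hyperosmotic control 5 genes were called, all among the 8. Without either library of Nfat5-1-siRNA 9 were called, 6 of them among the 8, and without either of Nfat5-2-siRNA 6 were, with 5 among the 8. Leaving out replicate 1 or 2 of the isosmotic control gave 9 and 7 genes, of which 7 and 6 were among the 8. The difference kept its direction in all 8 genes when any 1 library was left out.

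The clearest difference was at chr14:31743790-31793714, with a log2 fold change of −0.67 ± 0.09 (SE) and an edgeR adjusted p of 1.99e-07. Its normalised counts in passages 15 and 17 were 2740 and 1340 in the isosmotic control, 9519 and 5919 in the hyperosmotic control, 10150 and 7398 with Nfat5-1-siRNA, and 8209 and 5661 with Nfat5-2-siRNA. Passage 17 was the lower in each group, and the osmotic rise was present in both passages. The gene at chr1:43174894-43264285 went the other way, with a log2 fold change of 0.74 ± 0.12 and an edgeR adjusted p of 6.01e-06. It counted 161 and 412 in the isosmotic control, 1243 and 1397 in the hyperosmotic control, 1086 and 1715 with Nfat5-1-siRNA, and 1107 and 2077 with Nfat5-2-siRNA.

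At chr8:36613492-36655522 the log2 fold change between passages was −0.55 ± 0.09, with an edgeR adjusted p of 3.61e-05 and a lower count in passage 17 in 4 of 4 groups. At chr10:12785741-12817966 it was −0.64 ± 0.11, with an edgeR adjusted p of 6.77e-05, but the groups were not alike. The counts were 4920 and 6015 in the isosmotic control, 21150 and 14446 in the hyperosmotic control, 21577 and 11607 with Nfat5-1-siRNA, and 21304 and 8205 with Nfat5-2-siRNA. Passage 17 was higher at 300 mOsm and lower in the 3 groups at 500 mOsm. The remaining 4 genes, on chromosomes 14, 27 and 15, had log2 fold changes between −0.49 and 0.37, with edgeR adjusted p-values from 0.00278 to 0.0382.

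**Figure D5:**
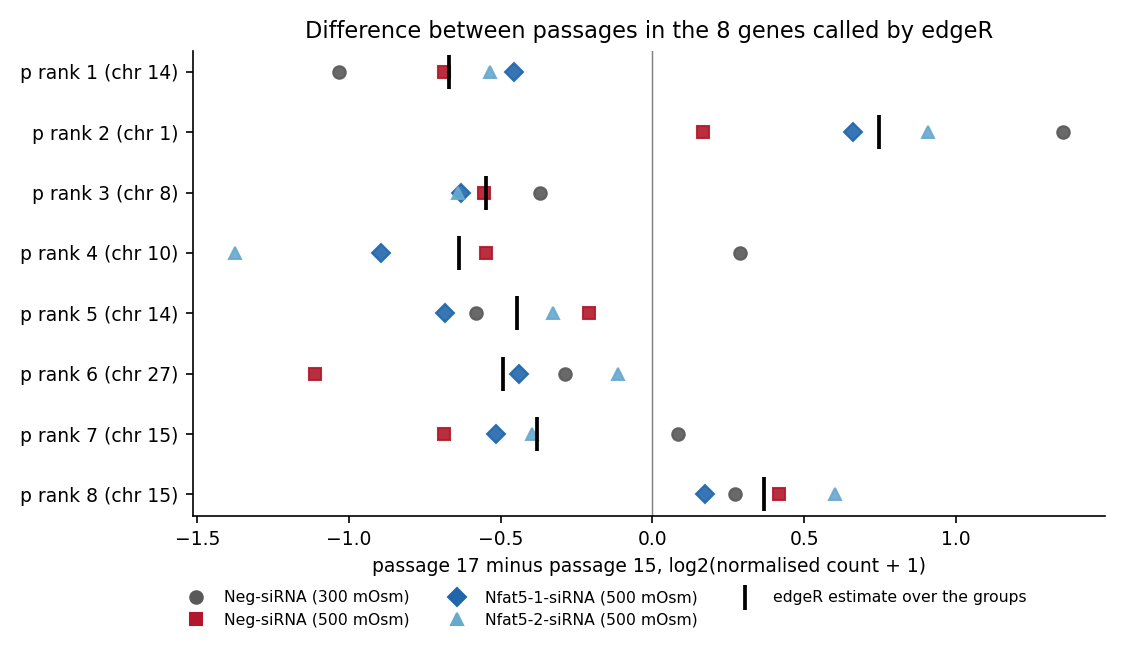
Difference between passage 17 and passage 15 in log2(normalised count + 1) in each group (symbols) and the edgeR estimate over the groups (black tick) for the 8 genes called, ordered by p-value. In 6 of the 8 genes the 4 groups lie on 1 side of 0, and in the other 2, on chromosomes 10 and 15, the isosmotic control lies on the opposite side.

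The knockdown itself and the identity of the cells could not be read from these values. No file used here pairs the Nfat5 transcript with an identifier, so its level is not reported as such. The paper reports that Nfat5 mRNA rose with hyperosmolality in its sequencing and that the siRNAs had no effect on this mRNA. It found less Nfat5 protein with the siRNAs by western blotting. Whether the gene beside NQO1 described above is Nfat5 was not determined. Of the 279 symbols in the 11 pathway lists, 46 could be paired with an identifier, and of the 44 markers of epithelial, collecting duct, proximal tubule, fibroblast, endothelial and leukocyte cells, 3 could. The list counts and the check of the cell type are void for that reason. None of the paired symbols belonged to the 88 genes, which was largely set in advance by the list that gave the symbols.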

How the data were processed

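The authors mapped paired-end reads with HISAT2 2.0.5 to CanFam 3.1 and deposited raw counts of reads over the exons of each gene in Ensembl 92, from featureCounts 1.5.1. Per the file headers, strand was ignored (option 0) and fragment counting was not set, so both mates of a pair may add to a count. No library column was a copy of another, and 0 columns were left unused.

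Genes whose counts summed to 5 or more were fitted with edgeR 4.0.16 in R 4.3.3 (TMM, quasi-likelihood, two-sided, all 8 libraries in 1 model), with the Benjamini-Yekutieli adjustment over all 19835 tested genes and a threshold of 0.05. DESeq2 1.42.0, other filters, adjustments and scalings, a fit of only the 4 libraries compared, a replicate block, and leaving out each library in turn were alternatives. Leaving out libraries for the passage comparison was added after the data were examined. Where a group was left with 1 library, it was assumed to vary like the others. Standard errors were computed from the F statistic. The fits were also tested on simulated data, but the outcome is not given here and nothing is read from it. Replicate numbers pair the libraries because the labels give them as the cell passage. The differences between passages were correlated between groups, with Pearson's r from 0.147 to 0.556 and a mean of 0.381 across the 9951 genes, which are not independent replicates. Tables and figures were made with Python 3.11.15 and pandas 2.3.3.

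The genes of the set and all gene lists were chosen with earlier results of these data known. The rule for single description took the 12 largest rises, the 8 highest counts per kilobase in Neg-siRNA (500 mOsm) and the 6 smallest siRNA differences. It also took the 8 smallest passage p-values and the genes next to each limit. Genes next to a limit are given by the value at that limit and were not added to the 33 single genes for it. The rule was written for genes with a symbol and was applied by position, since none of the 88 genes had one. Identifiers are printed for the 2 largest rises only. Symbols were taken from the identifier pairs in the study's supplementary gene list, without its values. The columns of that list with the authors' own comparisons were not used. The RefSeq gene table (UU_Cfam_GSD 1.0) gave no Ensembl identifiers.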

Additional observations from a re-analysis of the deposited data

How the results depend on the processing

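The number of genes chosen fell from 88 to 26 with a rise of at least 2 and to 52 with siRNA differences within 0.25. It was 75 to 93 when 1 library was left out, with 52 to 80 of the 88 shared, and it was lowest, with 52 shared, without replicate 1 of the hyperosmotic control. Passage 15 alone gave 71 genes, of which 50 were shared, and passage 17 alone 101, of which 62 were shared. No alternative called any of the 88 genes with either siRNA. With hyperosmolality 87 of the 88 were called with filterByExpr or with DESeq2, which called 3865 and 5046 over all genes. Nothing is read from the counts of calls in this paragraph, because the rule chose the genes by the same contrasts. For 33 single genes, 27 taken for their rise, level, siRNA or passage differences and 6 for their position near other genes, 357 of 363 alternative hyperosmotic values were still called. Of the other 6, 5 belonged to the gene at chr10:12785741-12817966 and 1 to that at chr14:31743790-31793714, and none was reversed. The log2 fold changes of the 33 genes moved by more than 1 SE in 27 of 363 alternative values with Nfat5-1-siRNA and in 50 of 363 with Nfat5-2-siRNA, in each case when 1 library was left out.

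With the replicate number, which is the passage, as a block, 6565 of all tested genes were called with hyperosmolality in place of 4077, 4264 with Nfat5-1-siRNA in place of 1572, and 5168 with Nfat5-2-siRNA in place of 2390. The common dispersion was 0.0320 without and 0.0168 with the block, which changed no call among the 88 genes. With the Benjamini-Hochberg adjustment the counts were 7033, 4033 and 5250. Without a filter on low counts they were 2866 with Nfat5-1-siRNA and 3760 with Nfat5-2-siRNA. DESeq2 called 2682 genes with Nfat5-1-siRNA, and only the 4 libraries compared gave 1565 with Nfat5-2-siRNA. Leaving out 1 library gave 2384 to 4157 genes with hyperosmolality, lowest without replicate 1 of the hyperosmotic control, 159 to 1620 with Nfat5-1-siRNA, lowest without its replicate 2, and 954 to 2272 with Nfat5-2-siRNA, lowest without replicate 2 of the hyperosmotic control.

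Between passages, 653 genes were called, or 101 with filterByExpr, 1570 with Benjamini-Hochberg, and 315 to 681 without 1 library. Among the 88 genes 8 were called, or 2 with filterByExpr, 5 with DESeq2, 16 with Benjamini-Hochberg, and 5 to 9 without 1 library. The cause of these changes was not tested. The number of passages, 2 per group, limited these comparisons.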
